A study of Homo sapiens with 8 samples.

Results

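A set of 10 members of the annexin and S100 families were followed in SLAM-Seq libraries of U-2OS Tet-ON cells, 10 of the 18388 genes listed. The annexins were ANXA1, ANXA2, ANXA4, ANXA5 and ANXA6, and the S100 genes were S100A2, S100A4, S100A6, S100A10 and S100A11. These genes were chosen by symbol, with their total and new RNA in siCGGBP1 and siControl cells already known. Their differences between the groups are therefore given as a description, without a p-value. All 10 passed the filter on low reads, a minimum of 100 reads in 3 or more of the 6 compared libraries that left 10138 tested genes.

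U-2OS Tet-ON is a human osteosarcoma cell line that carries the tetracycline-regulated transactivator. Cells were transfected with 50 nM of a control siRNA (siControl) or of a pool of siRNAs against CGGBP1 (siCGGBP1), a protein that binds CGG triplet repeats. The knockdown lasted 72 h, and 4-thiouridine (4sU) was given for 60 min before collection. All sample titles, of both groups and of the other doses, also carry the word DMSO, which the labels do not explain. The comparison used 3 siControl and 3 siCGGBP1 libraries, all with 75 µM 4sU. A siControl library without 4sU and another with 200 µM 4sU, 1 of each, were read beside them. In SLAM-Seq, alkylated 4sU in new RNA is read as a T-to-C conversion, so that each library gives the total RNA of a gene and an estimate of the share made during the labelling.

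Annexins are cytosolic proteins that bind acidic phospholipids when calcium rises, and they organise membrane contacts, vesicle traffic and the resealing of a torn plasma membrane. S100 proteins are small dimers with EF-hand motifs that mostly change shape on binding calcium and then hold a target protein. The families meet in defined complexes: S100A10, which has lost calcium binding, joins ANXA2, S100A11 binds ANXA1, and S100A6 binds ANXA11. S100A4 binds the heavy chain of non-muscle myosin, and S100A2 is best known from epithelia, where it interacts with p53.

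The 6 libraries held between 10127519 and 14221516 reads. CGGBP1 itself had 91.8 ± 15.1 CPM (SD, n = 3) in siControl and 19.6 ± 10.5 CPM (SD, n = 3) in siCGGBP1, a log2 fold change of -2.22 (SE 0.39, adjusted p = 0.0137, edgeR). CPM is the read count scaled to a library of 1000000 reads after TMM correction of the library totals. The libraries came from reads at the 3′ ends of transcripts and CPM was not divided by length, so levels were compared between libraries and never between genes. The mesenchymal and osteoblast markers summed to 3433 to 4351 CPM in siControl and 5214 to 7133 CPM in siCGGBP1. All 4 tested ones had positive log2 fold changes, and 2 were called up by the rule given below. These were COL1A1 at 1.31 (adjusted p = 0.00353) and SPARC at 1.26 (adjusted p = 0.00672) on the log2 scale, by edgeR. VIM, with 2309 to 2758 CPM in siControl and 2454 to 3229 CPM in siCGGBP1, and RUNX2 were not called. The osteoblast markers ALPL, BGLAP and SP7 had too few reads to be tested. ALPL reached at most 1.77 CPM and SP7 at most 0.495 CPM in any library. BGLAP had 3.86, 3.09 and 0 CPM in siControl and 0, 2.03 and 0.419 CPM in siCGGBP1. Of 9 genes in that list, 7 were listed, and COL1A2 and IBSP were not among them. The 5 epithelial markers summed to 10.7 to 12.9 CPM in siControl and 14.03 to 19.0 CPM in siCGGBP1, with CDH1 at 0. The 4 listed blood cell markers summed to at most 1.98 CPM, with CD3E and CD14 at 0 in all 6 libraries. The part of the marker shifts in the values below was not tested.

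Among the 10 genes, ANXA4 and S100A2 were higher in siCGGBP1 by more than 1 on the log2 scale, S100A10 and S100A6 were higher by less, and the other 6 had overlapping groups. A call needed an adjusted p under 0.05 (edgeR quasi-likelihood test, Benjamini-Hochberg over all tested genes) together with an absolute log2 fold change above 1. By this rule 2 of the 10 were called, both up. In the background, 0.444% of tested genes were called up, 0.957% down and 1.40% in either direction. In 4 of the 10 genes every siCGGBP1 library lay above every siControl library, and in 0 of them every one lay below. Over all tested genes these shares were 12.0% and 12.3%. The median log2 fold change was 0.20 over the 10 genes and -0.0031 over all tested genes. Since the genes were picked with these differences known, nothing is read from those counts. In bulk RNA, fewer cells of a type and less RNA per cell cannot be told apart.

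**Figure D1:**
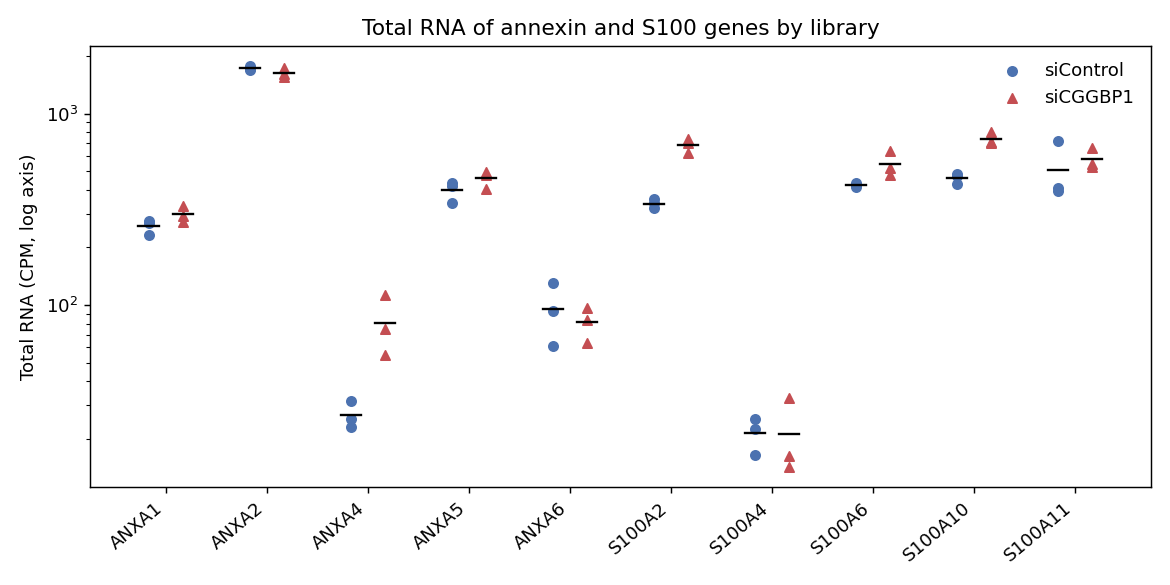
Total RNA of the 10 genes (CPM after TMM scaling, log axis) in each library with 75 µM 4sU; circles are the 3 siControl and triangles the 3 siCGGBP1 libraries, and bars mark the group means. The groups lie apart for ANXA4, S100A2, S100A6 and S100A10 and overlap for the other 6, and levels of different genes are not comparable on this scale.

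ANXA4 (ENSG00000196975, chr2:69644425-69827112, plus strand, GRCh38), an annexin of epithelial and secretory membranes, stood at 25.3, 31.5 and 22.9 CPM in siControl replicates 1 to 3. In the siCGGBP1 replicates it stood at 74.7, 54.8 and 113 CPM. Every siCGGBP1 library lay above every siControl library, and the siCGGBP1 libraries also spread more. Group means were 26.6 ± 4.40 and 80.9 ± 29.7 CPM (SD, n = 3 each), a 3.04-fold difference with a log2 fold change of 1.61 (SE 0.33). The call was lost under a replicate block and in all leave-one-out fits other than the one without siCGGBP1 replicate 2, while the log2 fold change stayed between 1.29 and 1.82.

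S100A2 (ENSG00000196754, chr1:153561108-153567890, minus strand) stood at 319.6, 356 and 340.2 CPM in siControl and at 733, 705 and 625 CPM in siCGGBP1. No siCGGBP1 library came near the siControl range. The mean went from 339 ± 18.4 to 688 ± 56.3 CPM (SD, n = 3 each), which is 2.03-fold and a log2 fold change of 1.02 (SE 0.16). This lies just past the fold limit, and the call was lost without siControl replicate 1 or siCGGBP1 replicate 1, where the log2 fold changes were 0.98 and 0.99. Without siCGGBP1 replicate 1 the adjusted p also missed its limit.

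S100A10 (ENSG00000197747, chr1:151982915-151993859, minus strand), the p11 subunit that carries ANXA2 to the plasma membrane, had 486, 429 and 471 CPM in siControl and 804, 703 and 714 CPM in siCGGBP1. The groups were far apart relative to their spread, at 462 ± 29.7 and 740.4 ± 55.0 CPM (SD, n = 3 each). Its 1.60-fold difference, a log2 fold change of 0.68 (SE 0.16), was below the fold limit in every fit. The adjusted p missed its limit in the main edgeR fit and in every leave-one-out fit. In 3 of 5 alternative fits to all 6 libraries it was under that limit.

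ANXA2 (ENSG00000182718, chr15:60347134-60402883, minus strand), the annexin that S100A10 binds, did not share this difference. Its siControl libraries had 1774, 1688 and 1708 CPM and its siCGGBP1 libraries 1561, 1724 and 1611 CPM. The groups overlapped, at 1723 ± 44.9 and 1632 ± 83.4 CPM (SD, n = 3 each), with a log2 fold change of -0.08 (SE 0.13). Reads of ANXA2 and S100A11 are uncertain to the extent that near-identical processed pseudogenes share them, and of 8 such pseudogene symbols looked for, 0 were listed.

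Promoters are shown for ANXA2 and for the 4 genes with separated groups in total RNA (ANXA4, S100A2, S100A10 and S100A6, described further on), because CGGBP1 binds CGG repeats. Each window runs 5′ to 3′ along the gene from 250 bases before a RefSeq start to 50 bases after it (GRCh38.p14). Searched on both strands were CGGCGG, the longer CGGCGGCGG that overlaps it, the AP-1 element TGANTCA (N is any base) and the TATA box TATAAA, and matches are in capitals. On the opposite strand CGGCGG appears as CCGCCG. ANXA4 and S100A2 had 2 windows each, of which the one with more matches is printed, a choice made after the matches were seen. The other ANXA4 window, at chr2:69741884-69742183, held 1 CGGCGG, and the other S100A2 window, at chr1:153563838-153564137, held 0 matches. The printed ANXA4 window ends before base 69644425, where the gene starts in the GENCODE annotation, and the other ANXA4 window lies inside the gene. Both S100A2 windows and the printed ANXA2 and S100A6 windows also lie inside their genes in that annotation. On the minus strand these genes begin at bases 153567890 (S100A2), 60402883 (ANXA2) and 153536244 (S100A6). Reads at the 3′ end do not show which start was used. The windows are ANXA4 at chr2:69643558-69643857 (plus strand), S100A2 at chr1:153565795-153566094 (minus strand), S100A10 at chr1:151993810-151994109 (minus strand), S100A6 at chr1:153535942-153536241 (minus strand) and ANXA2 at chr15:60397937-60398236 (minus strand).
ANXA4: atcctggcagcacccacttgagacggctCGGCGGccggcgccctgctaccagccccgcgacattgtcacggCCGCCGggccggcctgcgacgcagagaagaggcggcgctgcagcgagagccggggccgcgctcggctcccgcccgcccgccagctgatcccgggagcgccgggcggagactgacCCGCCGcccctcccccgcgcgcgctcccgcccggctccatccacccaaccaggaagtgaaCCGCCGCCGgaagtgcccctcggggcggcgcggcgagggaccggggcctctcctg
S100A2: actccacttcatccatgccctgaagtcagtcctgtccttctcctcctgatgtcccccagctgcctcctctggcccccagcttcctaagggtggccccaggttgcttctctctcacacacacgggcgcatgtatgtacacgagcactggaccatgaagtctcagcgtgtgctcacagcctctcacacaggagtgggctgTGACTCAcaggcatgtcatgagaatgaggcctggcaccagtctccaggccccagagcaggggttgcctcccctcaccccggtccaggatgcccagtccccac
S100A10: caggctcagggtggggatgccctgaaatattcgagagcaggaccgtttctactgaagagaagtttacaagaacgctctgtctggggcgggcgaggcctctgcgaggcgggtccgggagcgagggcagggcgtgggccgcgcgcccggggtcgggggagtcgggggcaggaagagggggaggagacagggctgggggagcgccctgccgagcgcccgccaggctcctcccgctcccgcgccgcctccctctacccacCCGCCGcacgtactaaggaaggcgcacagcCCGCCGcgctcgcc
S100A6: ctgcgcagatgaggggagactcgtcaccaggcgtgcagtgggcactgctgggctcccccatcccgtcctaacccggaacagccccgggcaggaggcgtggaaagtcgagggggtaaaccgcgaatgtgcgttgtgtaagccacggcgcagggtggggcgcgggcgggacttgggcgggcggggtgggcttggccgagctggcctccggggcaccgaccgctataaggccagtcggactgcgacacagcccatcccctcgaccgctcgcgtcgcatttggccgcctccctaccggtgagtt
ANXA2: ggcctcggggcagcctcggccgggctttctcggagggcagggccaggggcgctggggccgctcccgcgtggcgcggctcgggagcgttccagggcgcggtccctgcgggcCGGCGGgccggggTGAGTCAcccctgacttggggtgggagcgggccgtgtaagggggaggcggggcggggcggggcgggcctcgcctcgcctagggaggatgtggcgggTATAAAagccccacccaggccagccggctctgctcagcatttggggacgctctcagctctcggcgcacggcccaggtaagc

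The ANXA4 window held 5 matches to CGGCGG, of which the overlapping ones starting at bases 246 and 249 formed the only CGGCGGCGG among the 13 windows of the members. S100A10 held 2 matches to CGGCGG, both after the start of the gene, and ANXA2 held 1, at base 111. The S100A6 window held 0 matches to any of the motifs. The S100A2 window held no CGGCGG and a single AP-1 site at base 199, which reads as a match on both strands. ANXA2 combined an AP-1 site at base 124 with a TATA box at base 220. All 10 genes matched RefSeq promoters, with 13 windows among 35116 in all. CGGCGG was in 4 of the 13 and in 29.6% of all windows, CGGCGGCGG in 1 of 13 and 6.21%, TGANTCA in 2 of 13 and 7.71%, and TATAAA in 3 of 13 and 11.5%. A match describes the letters of a window and no more.

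The share of S100A10 relative to its partner put the difference on a scale that does not depend on library size. S100A10 had 27.4, 25.4 and 27.6 reads per 100 ANXA2 reads in siControl and 51.5, 40.8 and 44.3 in siCGGBP1. The means of 26.8 ± 1.22 and 45.5 ± 5.44 (SD, n = 3 each) came from groups that did not overlap. Since ANXA2 differed little, this repeats the difference in S100A10 and is no separate result. This ratio was computed after the levels had been seen, and both transcripts are counted at their 3′ ends, so it is no stoichiometry of the proteins. Over the 6 libraries the log2 profiles of ANXA2 and S100A10, centred on siControl, lay 0.546 apart (root mean square), and 59.0% of tested genes lay nearer to ANXA2 than S100A10 did.

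S100A6 (ENSG00000197956, chr1:153534599-153536244, minus strand), a calcium sensor of proliferating cells, had 422, 433 and 415 CPM in siControl and 638, 522 and 477 CPM in siCGGBP1. Its siControl libraries were tight and all lay below the siCGGBP1 libraries, of which replicate 1 was highest. The means were 424 ± 9.43 and 546 ± 83.4 CPM (SD, n = 3 each), and the log2 fold change was 0.37 (SE 0.17). Relative to its partner ANXA11, S100A6 went from 237 ± 33.6 to 300.4 ± 18.1 reads per 100 (SD, n = 3 each), again without overlap. ANXA11 itself differed by 0.00 on the log2 scale (SE 0.20, adjusted p = 0.998, edgeR). The ratio thus repeats the difference in S100A6 and is no separate result.

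S100A11 (ENSG00000163191, chr1:152032506-152047907, minus strand) and its partner ANXA1 (ENSG00000135046, chr9:73151865-73170393, plus strand) gave overlapping groups. For S100A11 the siControl libraries had 717, 407 and 395 CPM and the siCGGBP1 libraries 658, 545 and 528 CPM. Replicate 1 was the highest in both groups, and its siControl value lay above every siCGGBP1 library. The log2 fold change was 0.19 (SE 0.23), and without siControl replicate 1 it was 0.52. ANXA1, an annexin known as a mediator of glucocorticoid action, had 275, 233 and 269 CPM in siControl and 293, 271 and 328 CPM in siCGGBP1, with a log2 fold change of 0.20 (SE 0.18). Per 100 ANXA1 reads there were 194 ± 59.5 S100A11 reads in the siControl libraries and 196 ± 32.2 after siCGGBP1 (SD, n = 3 each).

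ANXA5 (ENSG00000164111, chr4:121667946-121696995, minus strand), whose protein binds exposed phosphatidylserine, had 433, 341 and 418 CPM in siControl and 478, 404 and 497 CPM in siCGGBP1. Replicate 2 was the lowest library of each group. The log2 fold change was 0.21 (SE 0.18), with overlapping groups. ANXA6 (ENSG00000197043, chr5:151100706-151157815, minus strand), the long annexin with a duplicated core, ranged from 61.4 to 131 CPM in siControl and from 63.1 to 96.7 CPM in siCGGBP1. Its siCGGBP1 values lay inside the siControl range, and the log2 fold change of -0.23 (SE 0.30) moved between -0.46 and 0.07 when single libraries were left out. S100A4 (ENSG00000196154, chr1:153543613-153550136, minus strand), a gene linked to cell motility, had 16.4, 25.3 and 22.6 CPM in siControl and 14.3, 16.3 and 32.8 CPM in siCGGBP1. With a log2 fold change of -0.02 (SE 0.47), its direction turned with the library left out, from -0.48 to 0.21.

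Of 24 other annexin and S100 genes looked for, 14 were listed, and 5 had enough reads to be tested. None of these 5 was called by edgeR or by DESeq2. In edgeR 1 of the 5 had an unadjusted p under 0.05, against 1661 of all 10138 tested genes, and nothing is read from that count. That gene, S100A13, had 105 ± 22.6 CPM in siControl and 154 ± 21.1 CPM in siCGGBP1 (SD, n = 3 each), with all siCGGBP1 libraries above all siControl libraries. Its log2 fold change was 0.56 (SE 0.23, adjusted p = 0.25, edgeR). The unadjusted p was no longer under 0.05 without siControl replicate 1, siControl replicate 2 or siCGGBP1 replicate 2. The log2 fold changes of the others were -1.01 for ANXA3 (adjusted p = 0.731), -0.26 for ANXA7 (adjusted p = 0.767), 0.00 for ANXA11 (adjusted p = 0.998) and -0.21 for S100A16 (adjusted p = 0.635), all from edgeR. The remaining 9 listed genes, ANXA8 and S100A1 among them, reached at most 95 reads in a library.

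**Figure D2:**
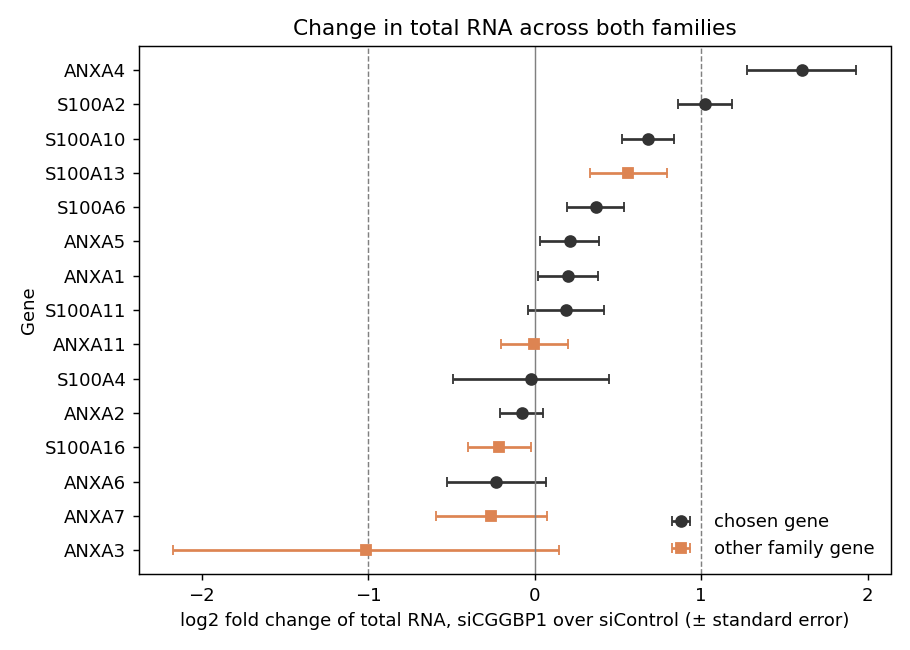
Fitted log2 fold change of total RNA (siCGGBP1 over siControl, ± standard error from edgeR) for the 10 chosen genes (circles) and the 5 other tested annexin and S100 genes (squares); dashed lines mark the fold limit of 1 in each direction. ANXA4 lies at 1.61 and S100A2 at 1.02, S100A10 at 0.68 and S100A13 at 0.56 follow, and ANXA3 has the widest error (SE 1.16).

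All 5 S100 members lie on chromosome 1, where most S100 genes sit in a cluster. Between 151982915 and 153632039 on that chromosome the annotation held 91 genes, and the 7 tested ones were all S100 genes. Tested neighbours had unlike log2 fold changes: S100A2 at 1.02 lay between S100A4 at -0.02 and S100A16 at -0.21, and S100A13, next to S100A16, was at 0.56. No other gene of that interval was tested, so the S100 genes could not be compared with unrelated neighbours.

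The single siControl libraries at the other 4sU doses gave further siControl values, after TMM scaling over all 8 libraries. S100A2 had 317 CPM without 4sU and 409 CPM at 200 µM, against 630 to 738 CPM in siCGGBP1 on that scale. ANXA4 had 34.5 and 31.6 CPM, against 55.7 to 114 CPM, and S100A10 had 443 and 464 CPM, against 715 to 809 CPM. For these 3 genes all 5 siControl libraries lay below the lowest siCGGBP1 library. S100A6 did not hold to this, since its 698 CPM at 200 µM exceeded every siCGGBP1 library. For 6 of the 10 genes (ANXA1, ANXA2, ANXA5, ANXA6, S100A2 and S100A6) the values at both other doses lay outside the 75 µM siControl range, as for ANXA5 with 609.9 and 704 CPM against 345 to 435 CPM. This was not counted over all tested genes, so nothing is read from the count of 6. With 1 library at each of those doses, no test was made.

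The nearest library profile outside the families was found for each gene, as the lowest root mean square difference of siControl-centred log2 CPM over the 6 libraries. ANXA4 was nearest to ZSWIM6 (0.170), S100A2 to UFC1 (0.0804) and S100A10 to AAGAB (0.0713). ANXA2 was nearest to GSPT1 (0.0481), and ANXA1 and ANXA5 were both nearest to SLC25A3 (0.0337 and 0.0510). The other nearest genes were RNASEH2A for ANXA6 (0.0925), LSM14B for S100A4 (0.0301), CYTOR for S100A6 (0.0566) and CHML for S100A11 (0.0655). With 6 libraries and 10138 tested genes, each such neighbour is a description of these libraries.

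The new-to-total ratio, the share of a gene's reads estimated to come from RNA made during labelling, was low for most of the 10 genes. In siControl it was 0.91%, 1.64% and 0% for S100A2, 1.23%, 1.16% and 0% for S100A10, and 0.97%, 0.35% and 0.15% for S100A11. Means over the siControl libraries were 0.49% for S100A11, 0.797% for S100A10, 0.85% for S100A2 and 0.92% for S100A6, against a median over tested genes of 4.51%. Between 14.9% and 20.4% of tested genes had a lower mean ratio than these 4. Neighbours in that order did not differ beyond their spread. ANXA2 had 2.94%, 4.46% and 3.10% and a mean of 3.5%, and 42.9% of tested genes were lower. ANXA6 stood apart from the rest of the family, with 18.5%, 19.1% and 15.2% and a mean of 17.6%, above 89.2% of tested genes.

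Conversions in the library without 4sU, where no labelling can have occurred, gave the background of these estimates. ANXA6 had 0.557, 0.542 and 0.406 conversions per 100 covered T in siControl and 0.502, 0.449 and 0.468 in siCGGBP1. Without 4sU it had 83 conversions in 18420 covered T, a rate of 0.451 (95% Wilson interval 0.364 to 0.558, counting error only), inside the range of the labelled libraries. Reads with at least 2 conversions, which labelling produces, numbered 2, 0 and 1 in the siControl libraries and 0 in each siCGGBP1 library. There was 1 such read without 4sU, and 0 at 200 µM. At 200 µM ANXA6 had 120 conversions in 13460 covered T, a rate of 0.892, which lay above that interval, and a ratio of 49.5%. At 75 µM the high ratio of ANXA6 thus stood beside a rate in the range of the unlabelled library, and at 200 µM beside a higher one. The part of unlabelled conversions in its ratio was not tested. S100A10 also had a high rate without 4sU, 0.122 per 100 covered T (95% Wilson interval 0.110 to 0.135), above all 3 siControl rates of 0.0998, 0.111 and 0.0126. It nevertheless had 34, 25 and 0 reads with at least 2 conversions in siControl and 20, 56 and 0 in siCGGBP1, against 2 without 4sU. ANXA2 showed label by both measures, with 0.196, 0.215 and 0.154 conversions per 100 covered T in siControl against 0.105 without 4sU. Its reads with at least 2 conversions numbered 138, 279.7 and 212.3 in siControl and 2.5 without 4sU.

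For 7 of the 10 genes all 3 siControl rates lay above the rate without 4sU, as did 51.7% of tested genes. The same 7 were above it in all 6 libraries, against 33.7% of tested genes. ANXA6, S100A4 and S100A10 were the exceptions. S100A4 had its conversions in single libraries, 62 in siControl replicate 2 and 47 in siCGGBP1 replicate 1, and at most 2 in each of the other labelled libraries of the comparison. Its ratios of 10.1% and 25.3% in those libraries, against 0% in the other 4, therefore rest on 1 library in each group.

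**Figure D3:**
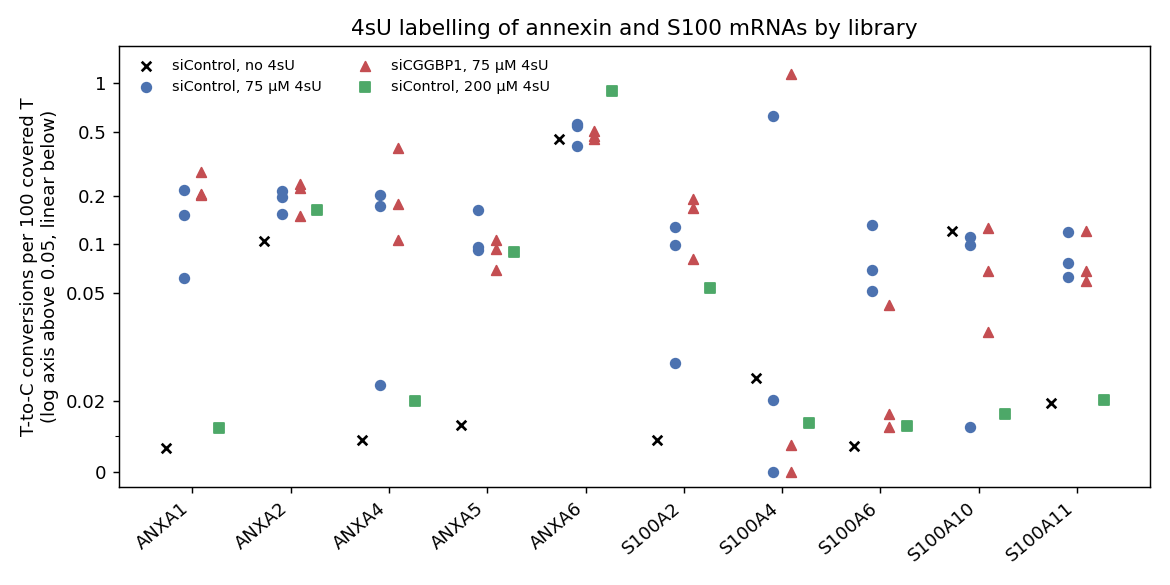
T-to-C conversions per 100 covered T for each gene, on an axis that is logarithmic above 0.05 and linear below; crosses are the siControl library without 4sU, circles the 3 siControl and triangles the 3 siCGGBP1 libraries at 75 µM, and squares the siControl library at 200 µM. ANXA6 has 0.451 without 4sU, inside the spread of its labelled libraries, and S100A6 is the gene whose siCGGBP1 libraries all lie below its siControl libraries.

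Comparing the groups, none of the 10 genes was called in new RNA, which is the read count multiplied by the new-to-total ratio, and 0 had groups that did not overlap. In the background, 0.0493% of tested genes were called by edgeR, 0.0296% up and 0.0197% down, and 2.89% and 4.45% lay apart with siCGGBP1 higher or lower. The spread of this estimate was wide for every member. S100A2 had a ratio of 0.38%, 2.36% and 3.60% in siCGGBP1, a new RNA log2 fold change of 2.26 (SE 1.52). ANXA4 had ratios of 0.53%, 3.64% and 0% in siControl and 1.68%, 10.5% and 0% in siCGGBP1, a log2 fold change of 2.47 (SE 3.27) that dropped to 0.61 without siCGGBP1 replicate 2. ANXA2 had -0.16 (SE 0.46) and ANXA6 -0.56 (SE 1.04). S100A10 had 0.24 (SE 2.23). For S100A6 the new RNA was 0, 3.74 and 7.82 CPM in siControl and 0 CPM in all 3 siCGGBP1 libraries, so that the groups met at 0 and no fold is given.

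S100A6 was the 1 gene whose conversion rates did not overlap between the groups. It had 0.0517, 0.0692 and 0.132 conversions per 100 covered T in siControl and 0.0127, 0.0161 and 0.0467 in siCGGBP1, so that every siCGGBP1 library lay below every siControl library, while its total RNA lay above in every one. Without 4sU the rate was 0.00728 (95% Wilson interval 0.00416 to 0.0127). In the siControl library at 200 µM it was 0.0129, inside the siCGGBP1 range and below the 75 µM siControl libraries. Its new-to-total ratio was 0% in siControl replicate 1 and in all siCGGBP1 libraries, and 0.87% and 1.89% in the other siControl libraries. Rates lay apart with siCGGBP1 lower in 1 of the 10 genes and higher in 0, against 4.65% and 4.36% of tested genes, and nothing is read from that count.

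Genes that work with these proteins were taken as 5 lists, with 60 tested genes in all, of which 0 were called up and 3 down by edgeR. Over all tested genes these shares were 0.444% up and 0.957% down. Of 10 tested binding partners, such as the myosin and ESCRT proteins that S100 proteins and annexins hold, 0 were called, and PDCD6IP had the lowest adjusted p (log2 fold change 0.67, adjusted p = 0.254). In the plasminogen system, which the ANXA2 and S100A10 complex binds at the cell surface, 1 of 8 tested genes was called down. This was PLAU, the urokinase that activates plasminogen, which went from 47.4 ± 10.4 to 12.9 ± 5.89 CPM (SD, n = 3 each). Its log2 fold change was -1.88 (SE 0.42, adjusted p = 0.0452, edgeR). Of the 8 genes, 6 had negative log2 fold changes and 2 had positive ones. Of 16 tested genes of membrane repair and ESCRT-III, 0 were called, and CHMP3 had the lowest adjusted p (log2 fold change 0.45, adjusted p = 0.241). BSG, the 1 tested receptor, was at -0.01 on the log2 scale (adjusted p = 0.991).

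Among 29 tested EF-hand proteins outside the S100 family, 0 were called up and 2 down. CALU, a calcium-binding protein of the secretory pathway, fell from 210.3 ± 13.95 to 61.1 ± 18.05 CPM (SD, n = 3 each), or -1.78 on the log2 scale (SE 0.25, adjusted p = 0.00504, edgeR). CETN2, a centriole protein, fell by 1.42 on the log2 scale (SE 0.32, adjusted p = 0.0455, edgeR). PLAU and CETN2 were no longer called under the replicate block or with edgeR's filterByExpr, and CALU then was the 1 called gene of all 5 lists. In the leave-one-out fits CETN2 was never called, and PLAU was called only without siCGGBP1 replicate 2. The median log2 fold changes were -0.16 for binding partners, -0.18 for the plasminogen system, 0.21 for membrane repair and -0.01 for the other EF-hand proteins, against -0.0031 over all tested genes.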

How the data were processed

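Reads of 3 siControl and 3 siCGGBP1 SLAM-Seq libraries were compared; the labels do not say whether replicates were separate cultures, so p-values measure the spread between these libraries only. The authors removed ribosomal reads with Bowtie2 2.3.0, mapped with STAR 2.5.3a and counted with GRAND-SLAM. As deposited, reads, T-to-C conversions, covered T and reads named min2 (read here as at least 2 conversions) are expected counts, not normalized, with fractions in 11644 genes. The new-to-total ratio was deposited as a fraction with credible limits. Deposited counts of double hits, all 0, and the deposited score columns of the posterior were not used. The Methods name no molecular identifiers and no duplicate removal.

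Reads were rounded and fitted with edgeR 4.0.16 (quasi-likelihood, TMM, Benjamini-Hochberg over 10138 genes) in R 4.3.3, with a minimum of 100 reads in 3 libraries. Each standard error was taken as the size of the fold change on the log2 scale over the square root of F. New RNA was reads times the maximum a posteriori ratio, with factors of the total reads. Alternatives were DESeq2 1.42.0, limma 3.58.1 (pseudocount 1 CPM), other filters, factors and estimates, a replicate block and leave-one-out.

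Replicate numbers come from the labels. Same-numbered libraries deviated together, with correlations of 0.122, 0.216 and 0.105 across genes. The main fits left this pairing out, so their calls and standard errors take no account of it. It entered only the alternative fits with a replicate block, under which ANXA4, PLAU and CETN2 were no longer called. Positions are from GENCODE on GRCh38, where 18198 of 18388 identifiers matched, and promoters from RefSeq.

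Named genes were all members, every other tested annexin and S100 gene, the called genes of each partner list or else its lowest adjusted p, and the nearest profile of each member. The members and lists were chosen with earlier results of these data known. The ratios of S100 to annexin reads and the chromosome 1 interval were added after the values were seen.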

Additional observations from a re-analysis of the deposited data

Results flagged for a closer look

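The siControl library with 200 µM 4sU entered no comparison between groups and was read for label in the 10 genes, whose conversions were summed. The rate was 0.0928 per 100 covered T at 200 µM and 0.0704 without 4sU. Reads with at least 2 conversions numbered 789.3 per 1000000 reads of the 10 genes at 200 µM and 92.9 without 4sU. Both values exceeded the unlabelled library. They also lay below all 6 libraries with 75 µM 4sU, which had 0.119 to 0.167 conversions per 100 covered T and 5275 to 9299 such reads per 1000000. Over all genes the 200 µM library had 0.218 conversions per 100 covered T, inside the range of 0.183 to 0.263 at 75 µM, and its share of new reads was 8.14%, against at most 5.71% at 75 µM. With 1 library at each of the other doses, the difference between doses was not tested.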

How the results depend on the processing

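The count of 2 members called in total RNA became 1 under the replicate block, which kept S100A2 and lost ANXA4, and 0 to 2 in the leave-one-out fits. It was 0 without siControl replicate 1 or without siCGGBP1 replicate 1. The count of 3 called partner genes became 1 with edgeR's filterByExpr and 1 under the replicate block. It was 1 to 2 in the leave-one-out fits. With DESeq2 it was 4, adding CALML4 as down, and without the fold limit it was 4, adding MYL6 as up. The replicate block changed no other call among the members, the other family genes and the partner lists. The median log2 fold change of the 10 genes in total RNA was 0.12 to 0.32 in the leave-one-out fits, the highest without siControl replicate 1. The median of the mean siControl ratios was 1.61% and became 0.78% without siControl replicate 2, with a leave-one-out range of 0.78% to 2.10%. Where no value shows a reason, the cause was not tested. Among log2 fold changes of single members, 0 of 110 values in total RNA and 10 of 130 in new RNA moved by more than the spread between replicates, and 0 called values reversed. New RNA of S100A6 rested on 2 libraries, since its ratio was 0% in the other 4, and what limits these estimates was not tested.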
